A study of Mus musculus with 69 samples.

Results

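Kitl (ENSMUSG00000019966) and Kit (ENSMUSG00000005672) encode a growth factor and its receptor, and were followed through tubules dissected by hand from mouse kidneys. They were chosen by symbol from the 4 deposited expression tables, and chosen on a result: Kitl is lower in the collecting duct 24 h after surgery. They are 2 genes of the 55487 listed in the 24 h tables and the 53700 listed in the 72 h tables, of which 52404 are in all 4. Because that contrast selected them, Kitl and Kit in the collecting duct at 24 h are described below without a test. Tests are given for the other 3 tables, which the choice did not use.

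The mice were male C57BL/6 animals from Taconic, WT by genotype and 7 weeks old at surgery. Each had a kidney removed (unilateral nephrectomy, UNx) or was sham-operated. Tubules came from segment S1, the start of the proximal tubule (PT-S1), or from cortical collecting duct (CCD), in mice of the 24 h or the 72 h time point. PT-S1 libraries numbered 8 sham (3 animals) and 9 UNx (4 animals) at 24 h, and 12 sham and 12 UNx (5 animals each) at 72 h. CCD libraries numbered 8 sham (4 animals) and 7 UNx (3 animals) at 24 h, and 7 sham and 6 UNx (4 animals each) at 72 h. Some animals gave several libraries, so the animal is the replicate, values are means over animals ± SD, and n counts animals. All groups carried the same genotype, and no group was left without surgery.

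KIT ligand, also called stem cell factor, is made as a membrane-anchored protein that surface proteases can release. It pairs up KIT receptors, whose tyrosine kinase domains then signal through PI3K, the RAS and MAP kinase chain, SRC family kinases and STAT proteins. The pair is best known for the upkeep of blood stem cells, mast cells, melanocytes, germ cells and pacemaker cells of the gut. In the collecting duct, principal cells handle water and sodium and intercalated cells handle acid and base, and antibodies to KIT have been used to sort intercalated cells from mouse kidney.

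The values are TPM (transcript abundances scaled to a fixed total), which divide reads by gene length and so allow levels of different genes to be compared within a library. TPM keeps no depth, so the depth of every library is unknown and no counting error can be given. Differences are UNx minus sham on the log2(TPM + 1) scale, which understates changes of genes with low values. Of the 69 libraries, 5 stood apart, with a median correlation to the rest of their table below 0.92. Of these, 2 were PT-S1 sham at 24 h, 2 were PT-S1 UNx at 72 h and 1 was CCD sham at 72 h. The principal cell markers, including Aqp2 and Avpr2, summed to 22133 to 66803 TPM in CCD animals and to 71.5 to 135 TPM in PT-S1 animals. In PT-S1 that sum was mostly Aqp3 and Fxyd4 (76.9 and 16.7 TPM in sham at 24 h), with Aqp2 at 0.095 TPM. Markers of proximal tubule S1/S2 summed to 6132 to 14679 TPM in PT-S1 animals and to 0.91 to 67.2 TPM in CCD animals. Those of proximal tubule S3 varied from 0.957 to 397 TPM among PT-S1 animals, and their part in the results was not tested. Nothing in the labels says whether PT-S1 and CCD came from the same mice.

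The start regions of both genes are shown to place the transcripts on the genome and to show how their core promoters differ. These are RefSeq sequences of GRCm38.p6, plus strand, from 40 to 11 bases before the annotated transcription start, 5′ to 3′. The expression tables rest on another build (GRCm39, per the submitters' processing notes), and no expression value was read by coordinate. Kitl lies at chr10:100015781-100015810 and Kit at chr5:75574947-75574976, the first of 2 annotated Kit starts. Capitals mark the TATA box letters TATAAA.
Kitl: ggcgggagggagctgTATAAAaagcgctgg
Kit: tcgcgcgccgctagtggctctgggggctcg

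The Kitl stretch holds TATAAA beginning 25 bases before the start, and the Kit stretch holds none. Read forward, these letters occur in the same stretch of 2.08% of 32851 RefSeq promoters. In the 250 bases before the start, read on both strands, the GC box GGGCGG had 2 matches at Kitl and 1 at Kit, and occurs in 32.7% of promoters. The E-box CACGTG, bound by MITF, had 0 matches at either gene and occurs in 6.02% of promoters. The HIF core ACGTG, which CACGTG contains, also had 0 matches at both and occurs in 16.6%. A match is a description of letters only.

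Both transcripts were far more abundant in the collecting duct than in the proximal tubule. Kitl was between 36.4 and 110 TPM in the CCD groups and between 1.54 and 3.57 TPM in the PT-S1 groups, while Kit was between 157 and 293 TPM in CCD groups and under 1 TPM in every PT-S1 group. The receptor was thus the more abundant transcript of the pair in the CCD and the less abundant in PT-S1. The tables may have been normalized separately, so levels set across them are descriptions.

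In the CCD at 24 h, Kitl averaged 110 ± 5.74 TPM in sham animals (SD, n = 4) and 36.4 ± 7.33 TPM in UNx animals (SD, n = 3). The sham animals held 116, 114, 104 and 107 TPM, and the UNx animals 28.7, 37.1 and 43.3 TPM. The groups did not overlap, and the sham animals lay close together. The difference was -1.77 (SE 0.153, 95% interval -2.11 to -1.42), and the sham mean was 3.04 times the UNx mean. That interval takes no account of the choice of Kitl by this contrast, so it is no test against 0. Each UNx animal was lower than each sham animal in 9.31% of the 13775 genes tested in this table, and 0.661% were lower with a limma adjusted p under 0.05. Since Kitl was picked from this contrast, those shares stand beside its value and nothing is read from them.

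The single libraries show the same separation with more scatter. They are repeats of the same animals in the contrast that chose Kitl, so this is a description and adds no support. The 8 sham libraries ran from 88.05 TPM through a median of 107 to 143.95 TPM, and the 7 UNx libraries from 12.96 TPM through a median of 44.5 to 58.18 TPM. All 7 UNx libraries were below all 8 sham libraries. Within the UNx animals, libraries of the same mouse differed by up to 3.65 times: 12.96 and 44.49 TPM in the first animal, 15.93 and 58.18 TPM in the second, and 26.68, 54.64 and 48.7 TPM in the third. Libraries of a single UNx mouse thus covered most of the range of the whole group. In bulk tubules, fewer cells that carry a transcript and less of it per cell cannot be told apart.

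At 72 h, which the choice of genes did not use, Kitl in the CCD did not separate the groups. Sham animals held 35.6, 72.2, 54.6 and 63.8 TPM (56.5 ± 15.7, SD, n = 4) and UNx animals 25.2, 43.2, 50.2 and 48.8 TPM (41.9 ± 11.5, SD, n = 4). The UNx animals sat lower on average, but the sham animal at 35.6 TPM was below 3 of the 4 UNx animals. The difference was -0.45 (SE 0.277, 95% interval -1.07 to 0.17), with a limma adjusted p of 0.837. The two-sided exact permutation p over animals was 0.229, where 0.0286 is the smallest these numbers allow. Of 13770 genes in this table, 0.595% passed the adjusted threshold of 0.05. The interval spans 0 as well as lower levels in UNx.

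Sham animals themselves differed between the times. Kitl in sham CCD averaged 110 TPM at 24 h and 56.5 TPM at 72 h, and no 72 h sham animal reached the lowest 24 h sham animal. The 24 h UNx mean of 36.4 TPM lay within the range of both 72 h groups. The 24 h sham animals thus lay above every other CCD animal of the series. A difference between times and one between tables, which may have been normalized on their own, cannot be told apart here.

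**Figure D1:**
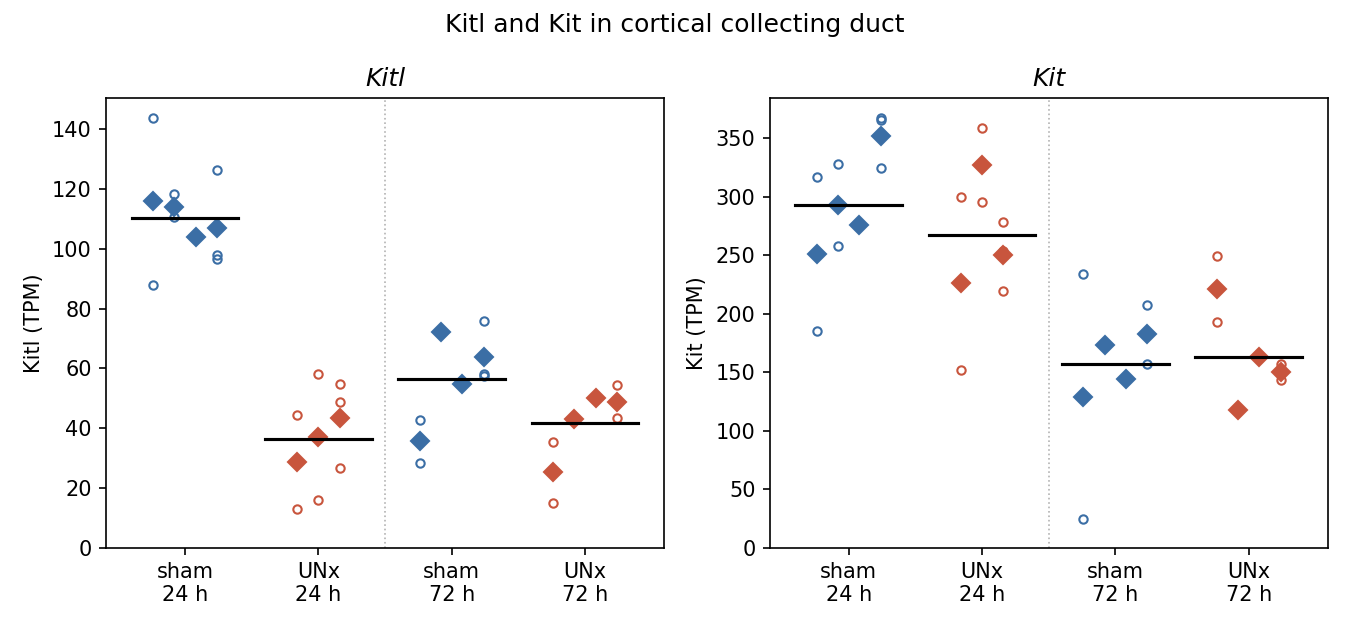
Kitl (left) and Kit (right) in cortical collecting duct in TPM on linear axes from 0, by surgery and time. Open circles are libraries, diamonds are animal means and horizontal lines are group means; Kitl is highest in the 4 sham animals at 24 h (104 to 116 TPM), while the Kit groups overlap at each time.

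Kit, the receptor, overlapped between sham and UNx at both times in the CCD. At 24 h the sham animals held 251, 293, 276 and 352 TPM (293 ± 43.2, SD, n = 4) and the UNx animals 226, 327 and 250 TPM (268 ± 52.7, SD, n = 3). The groups overlapped, and the difference was -0.15 (SE 0.159, 95% interval -0.51 to 0.21). This interval too is a description and not a test.

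At 72 h Kit was 129, 173, 144 and 183 TPM in the sham animals (157 ± 24.9, SD, n = 4) and 221, 118, 163 and 150 TPM in the UNx animals (163 ± 43.1, SD, n = 4). The highest and the lowest animal were both UNx, so the sham range lay inside that of UNx. The difference was 0.22 (SE 0.274, 95% interval -0.39 to 0.83), with a limma adjusted p of 0.931 and an exact permutation p of 0.629. Its sign rested on a library of sham animal 1, which held 24.73 TPM against 143.51 to 233.9 TPM in the other sham libraries and was among the 5 of low correlation. Without it the difference was -0.18 (limma adjusted p = 0.704), and without that animal -0.06 (0.919). Kit too was higher in the CCD at 24 h than at 72 h in the group means, and the lowest animal at 24 h (226 TPM) was above the highest at 72 h (221 TPM).

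In PT-S1 Kitl was low but present in every library. At 24 h it was 1.64, 1.58 and 1.4 TPM in the sham animals (1.54 ± 0.128, SD, n = 3) and 1.51, 0.955, 3.5 and 1.15 TPM in the UNx animals (1.78 ± 1.17, SD, n = 4). A single UNx animal, at 3.5 TPM, was above all sham animals, 1 was within their range and 2 were below it. The difference was 0.09 (SE 0.287, 95% interval -0.55 to 0.72), with a limma adjusted p of 0.874 and an exact permutation p of 0.943. Without that animal it was -0.17 (limma adjusted p = 0.65), and without the 2 sham libraries of low correlation -0.02 (0.969), so the sign at 24 h is not settled. Over all genes tested in this table the median difference was -0.19, and 0.0% of 11874 genes passed (2109 had an unadjusted p under 0.05).

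At 72 h the sham animals of PT-S1 had close means, at 3.5, 3.29, 3.81, 3.47 and 3.78 TPM of Kitl (3.57 ± 0.223, SD, n = 5). The UNx animals were spread, at 0.745, 0.875, 4.41, 4.27 and 2.65 TPM (2.59 ± 1.77, SD, n = 5). Of the UNx animals, 3 lay below every sham animal and 2 above, so no single direction describes the group. Single libraries were wider in both, from 0.97 to 5.93 TPM in sham and from 0.7 to 8.08 TPM in UNx, so the narrow sham range is one of animal means. The difference was -0.50 (SE 0.292, 95% interval -1.13 to 0.14), with a limma adjusted p of 0.3 and an exact permutation p of 0.238, where 0.00794 is the smallest possible. The median over all tested genes was -0.29, which leaves -0.21 for Kitl relative to it, and 0.0% of 11886 genes passed (2432 had an unadjusted p under 0.05). The lowest UNx animals, at 0.745 and 0.875 TPM, are also those that hold the 2 libraries of low correlation. Their other libraries were as low, at 0.79 and 1.04 TPM, and without the 2 libraries the difference was -0.46.

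Kit in PT-S1 was near the bottom of the measured range and was left out of the fit, which took genes with a mean of at least 1 TPM. At 24 h sham animals averaged 0.388 ± 0.173 TPM (SD, n = 3) and UNx animals 0.188 ± 0.0786 TPM (SD, n = 4), with an exact permutation p of 0.114. At 72 h the sham mean was 0.398 ± 0.242 TPM (SD, n = 5) and the UNx mean 0.203 ± 0.102 TPM (SD, n = 5), with an exact permutation p of 0.151. Kit was listed at 0 in 4 of the 41 PT-S1 libraries. The intercalated cell markers, which PT-S1 tubules should lack, summed to between 1.06 and 4.18 TPM at 24 h. At 72 h they reached 28.9 TPM in a sham animal and 3.0 TPM at most in UNx animals. Whether the residual Kit of PT-S1 follows such stray collecting duct RNA was not tested.

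**Figure D2:**
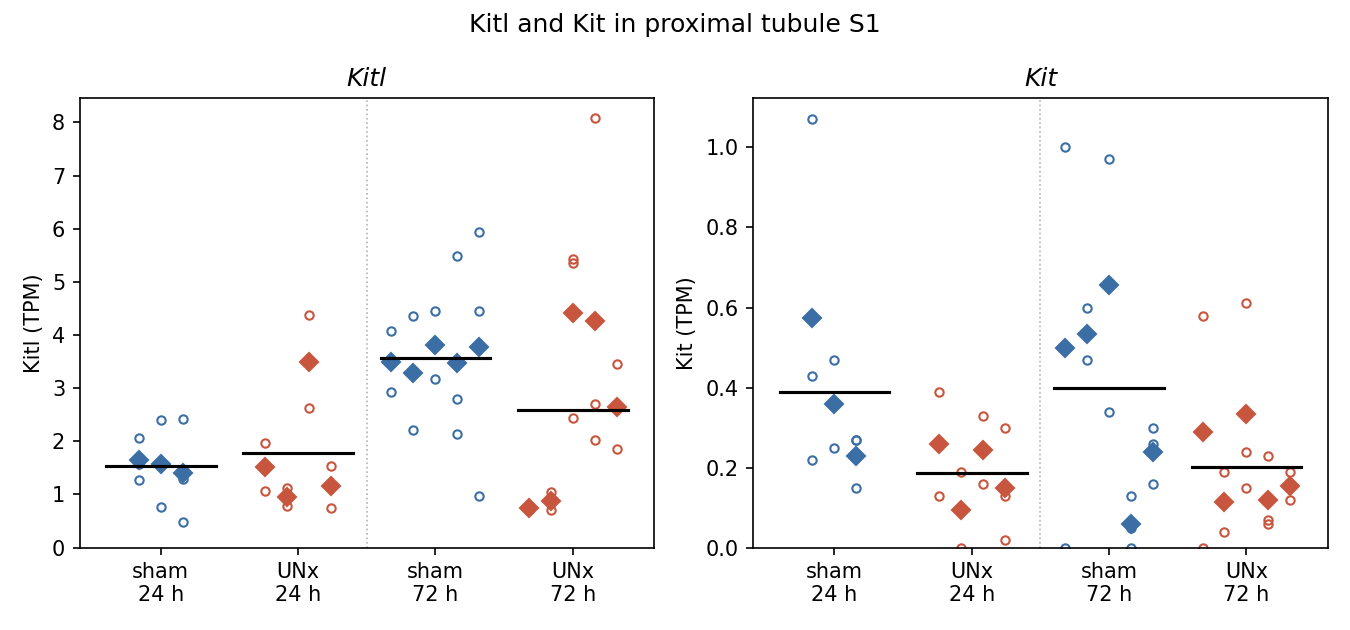
Kitl (left) and Kit (right) in proximal tubule S1 in TPM on linear axes from 0, with libraries as open circles, animal means as diamonds and group means as lines. Kitl of the 5 sham animals at 72 h lies between 3.29 and 3.81 TPM while the UNx animals spread from 0.745 to 4.41 TPM; Kit is under 1 TPM in every animal.

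Ranked by group mean, Kitl ran from CCD sham at 24 h (110 TPM) through CCD sham at 72 h (56.5), CCD UNx at 72 h (41.9) and CCD UNx at 24 h (36.4) to PT-S1 sham at 72 h (3.57). The last places were PT-S1 UNx at 72 h (2.59), PT-S1 UNx at 24 h (1.78) and PT-S1 sham at 24 h (1.54). Neighbours in that order failed to overlap only at the first step and at the step from CCD to PT-S1. For Kit the order was CCD sham at 24 h (293 TPM), CCD UNx at 24 h (268), CCD UNx at 72 h (163) and CCD sham at 72 h (157), followed by the PT-S1 groups. Neighbours failed to overlap only between the 24 h and 72 h groups and between CCD and PT-S1. In CCD, the Kit groups were therefore ordered by time and the Kitl groups were not.

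Whether the UNx difference of Kitl at 72 h depended on the segment was tested as the difference of both effects. It was 0.05, CCD minus PT-S1 (SE 0.438, 95% interval -0.87 to 0.97, limma adjusted p = 0.955), and 0.0% of 11035 genes passed this test. The sign changed with median-ratio scaling (-0.21) and when any of 5 of the 18 animals was left out. Kit could not be tested in this way, since it was below the filter in PT-S1. At 24 h no such test is given, because the CCD contrast chose the genes.

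**Figure D3:**
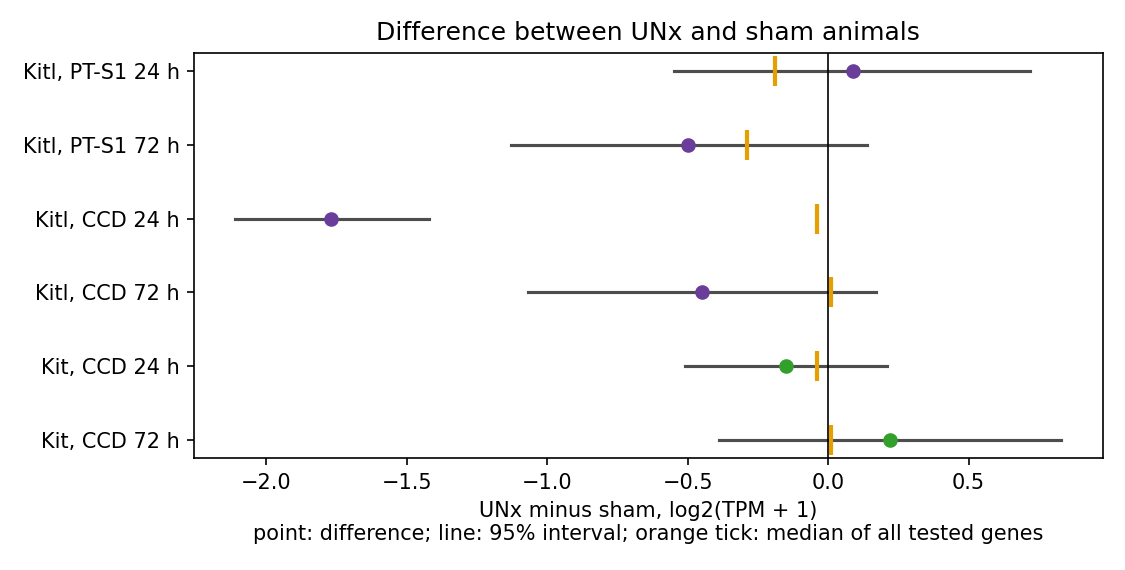
UNx minus sham on the log2(TPM + 1) scale for Kitl in 4 tables and Kit in 2, where points are differences, lines 95% intervals and orange ticks the median of all tested genes. Kitl in CCD at 24 h (-1.77) is the value by which the genes were chosen. Both genes in CCD at 24 h, with their lines, are shown as a description and not as a test. In the 3 tables outside that choice the intervals of Kitl, and that of Kit in CCD at 72 h, include 0.

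The cells that could carry each transcript were followed through marker lists. Intercalated cell markers, 9 of 9 detected, summed to 4911 to 5265 TPM in sham and 4874 to 5649 TPM in UNx animals of the CCD at 24 h. At 72 h they summed to 3677 to 7097 TPM in sham and 5329 to 5568 TPM in UNx animals. Their range in UNx thus enclosed that of sham at 24 h. Per 1000 TPM of these markers, Kit was 57.8 TPM in sham (47.7 to 68.0 over animals) and 50.7 TPM in UNx (42.7 to 57.9) at 24 h. At 72 h the values were 31.0 (23.8 to 47.0) and 29.9 TPM (21.4 to 40.5). Kit was thus lower at 72 h relative to intercalated markers too, with no overlap between times within sham or within UNx. Across surgeries, the ranges of 72 h sham and 24 h UNx overlapped.

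Across the 28 CCD libraries, with each table centred on its mean, Kit followed the intercalated cell sum with a Pearson r of 0.68 and a Spearman rho of 0.53. Libraries of an animal and of a table share their source, and without the low-correlation library r was 0.33. Kitl had an r of 0.04 with the intercalated sum and -0.49 with the principal cell sum, the latter 0.06 once each group was centred. Kitl and Kit themselves were only weakly related across these libraries, with an r of 0.14.

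Principal cell markers, 7 of 7 detected, summed to 25077 to 50456 TPM in sham and 48052 to 66803 TPM in UNx animals of the CCD at 24 h. Kitl per 1000 TPM of these markers was 3.25 TPM in sham (2.08 to 4.63) and 0.635 TPM in UNx animals (0.43 to 0.771). Per 1000 TPM of intercalated markers it was 21.8 TPM in sham (20.6 to 23.3) and 6.96 TPM in UNx animals (5.43 to 8.89). The principal cell sum was mostly Aqp2, at 22506 TPM in sham animals and 41324 TPM in UNx (1.06), while Scnn1b (-0.04), Scnn1g (0.01), Fxyd4 (-0.11) and Hsd11b2 (-0.10) differed little, and the list median was 0.01. The first ratio therefore also carries the difference in Aqp2. No member of either list passed the limma threshold in a CCD table. Markers of the thick ascending limb, another segment, summed to 98.6 to 3480 TPM in sham and 83.4 to 200 TPM in UNx animals at 24 h. Those of the distal convoluted and connecting tubule summed to 291 to 418 TPM in sham and 416 to 490 TPM in UNx animals. That sum was mostly Calb1 (328 and 435 TPM), and 2 of the 3 tested markers of that list were lower in UNx. The part of these segments in the result was not tested.

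Mast cells, which depend on KIT, left almost no trace. Their 7 markers summed to 0.12 to 0.17 TPM in sham and 0 to 0.0833 TPM in UNx animals of the CCD at 24 h, with Cpa3, Mcpt4, Cma1 and Fcer1a at 0 in all animals. At 72 h the sums were 0.015 to 0.11 TPM and 0.045 to 0.38 TPM, with Mcpt4 and Fcer1a at 0. Kit in the same animals was 118 to 352 TPM. Endothelial markers, from cells that can make KIT ligand, summed to 99.8 to 229 TPM in sham and 133 to 352 TPM in UNx animals at 24 h. That sum was mostly Plvap (109 TPM in sham, 145 TPM in UNx), and 4 of the 6 tested markers had a lower mean in UNx, with a median difference of -0.13. The part of endothelial cells in the result was not tested.

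The wider pathway was followed through 6 lists with 102 genes, all of them in the files. Of these, 83 were tested in CCD at 24 h and 82 at 72 h, and 67 and 70 in PT-S1. A single gene passed in all 4 tables together: Mitf fell in the CCD at 24 h. That is 1 of 83 genes, beside 0.987% of all genes tested in this table (136 genes, and 7 to 78 when any animal was left out). An unadjusted limma p under 0.05 was reached by 15 of 83 list genes in CCD at 24 h and 2 of 82 at 72 h. Among all tested genes it was reached by 2138 of 13775 and 1031 of 13770. In PT-S1 the list counts were 15 of 67 at 24 h and 12 of 70 at 72 h. The counts of all tested genes there were 2109 of 11874 and 2432 of 11886.

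Mitf encodes a transcription factor of melanocytes and mast cells that acts on Kit and is itself a target of KIT signalling. It was 16.8 ± 2.65 TPM in sham (13.1 to 18.9, n = 4) and 7.05 ± 1.88 TPM in UNx animals (5.44 to 9.11, n = 3), with no overlap. It fell by 1.15 on the log2 scale (SE 0.183, limma adjusted p = 0.0311), lower in 3 of 3 UNx animals. All UNx animals lay below all sham animals in 9.31% of the 13775 genes tested in this table. The call was lost without sham animal 1, 2 or 3 (0.0944, 0.0772 and 0.0607) or UNx animal 1 or 2 (0.104 and 0.12), and the adjusted p ranged from 0.00115 to 0.39 over all alternatives. At 72 h sham animals had 21.8 ± 8.61 TPM of Mitf and UNx animals 17.1 ± 3.1 TPM (SD, n = 4 each), a difference of -0.26 (limma adjusted p = 0.918). In PT-S1 Mitf was low, and its means were also lower in UNx. Sham and UNx animals had 2.0 and 1.09 TPM at 24 h (-0.46, limma adjusted p = 0.273). At 72 h they had 1.66 and 1.13 TPM (-0.34, limma adjusted p = 0.271). The medians over all tested genes there were -0.19 and -0.29. Of the other factors of this list, Sp1 had 7.51 and 5.08 TPM in sham and UNx CCD at 24 h (limma adjusted p = 0.156), and 7 of 10 were tested.

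Among 35 tested genes that carry the signal onward from the receptor, none passed in the CCD at 24 h, and their median difference of -0.05 lay beside -0.04 for all genes. The smallest p belonged to Map2k2 (MEK2), with 122 TPM in sham animals and 144 TPM in UNx (0.24, limma adjusted p = 0.184), and to Mapk3 (ERK1), with 61.9 and 80.2 TPM (0.36, 0.24). These kinases act in sequence at the end of the RAS chain, and both had higher means in UNx. Of 13 tested inhibitors none passed. Ptpn11, the phosphatase SHP2, which also promotes signalling, had 16.1 and 10.4 TPM (-0.59, limma adjusted p = 0.0693). Cbl, the ubiquitin ligase that removes active KIT, had 12.9 and 9.2 TPM (-0.45, 0.236).

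The proteases that release KIT ligand were level in the CCD at 24 h. Adam9 had 54.5 TPM in sham animals and 55.9 TPM in UNx (0.03, limma adjusted p = 0.894) and Adam17 34.4 and 34.9 TPM (0.02, 0.949), and only these 2 of 6 passed the filter. Of the related ligands of class III receptors, Csf1 and Pdgfd were scarcer than Kitl in the CCD at 24 h. Csf1, the macrophage growth factor, had 27.4 TPM in sham animals and 20.6 TPM in UNx (-0.44, limma adjusted p = 0.494), and Pdgfd had 2.85 and 1.65 TPM (-0.29, 0.647). None of the 8 tested members of that list passed.

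Other growth factors made by tubules gave a median difference of -0.37 in the CCD at 24 h over 18 tested genes, against -0.04 over all genes, and -0.07 at 72 h. No member passed at either time. Tgfa, an EGF receptor ligand, had 14.2 and 10.8 TPM in sham and UNx animals at 24 h (-0.37, limma adjusted p = 0.157). Bmp7, a factor that maintains nephrons, had 44.6 and 54.3 TPM (0.28, 0.159). The directions of Tgfa and Bmp7 were opposite. Medians of the other lists in the CCD at 72 h ran from -0.08 to 0.15, beside 0.01 for all genes.

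The genes most like Kitl over the 28 CCD libraries, among 9617 with a mean of at least 5 TPM, were Aff4, Tmf1, Dido1, Atad2b and Trip11. With each table centred their Pearson r was 0.91, 0.88, 0.87, 0.86 and 0.86, and with each group centred 0.86, 0.72, 0.80, 0.79 and 0.78, so the likeness was also there among libraries of the same surgery. Aff4, a scaffold of the super elongation complex, had 89.0 TPM in sham and 43.6 TPM in UNx CCD at 24 h. It was lower in UNx by 1.11 on the log2 scale there. Tmf1 and Trip11, both Golgi-associated coiled-coil proteins, were lower by 0.84 and 0.81, and Dido1 and Atad2b by 0.69 and 0.56. At 72 h none of the 5 passed the limma threshold, with differences of -0.49 to -0.07. These libraries include those that chose Kitl, so genes picked this way tend to share its difference at 24 h. The 24 h differences are therefore descriptions, without a test. All 5 have long transcripts, of 5732 bases for Tmf1 (decile 9 of transcript length among tested genes) and 8035 to 10099 bases for the others (decile 10). With the long-transcript index described below as a covariate, or with a block by animal number, 0 genes passed in the CCD at 24 h.

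The genes most like Kit were Cdh1, Mtmr3, Ids, Wdr72 and Nbr1, with an r of 0.96 to 0.97. Cdh1 encodes E-cadherin, the adhesion protein of epithelial junctions. Much of this likeness came from the low-correlation library of sham animal 1 at 72 h: without it r was 0.85 to 0.88, and by Spearman rank none of the 5 was among the 5 highest. None of the 5 passed the limma threshold in a CCD table. For Kitl, 4 of the 5 stayed among the 5 highest when groups were centred and 2 by Spearman rank.

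Differences in the CCD at 24 h also varied with the length of transcripts. The longest annotated Kitl transcript has 5648 bases and that of Kit 5241, both in decile 9 of 10 among tested genes. In the CCD at 24 h the median difference was -0.10 in decile 9 and -0.25 in decile 10, and 46 of the 91 genes that passed as lower were in decile 10. Relative to the median of its own decile, Kitl had a difference of -1.67. Without single animals the number of lower genes ran from 2, with UNx animal 1 left out, to 59, with UNx animal 3 left out. In the CCD at 72 h the medians of deciles 9 and 10 were 0.01 and -0.01. In PT-S1 at 24 h the medians ran from 0.06 in decile 1 to -0.38 and -0.39 in deciles 9 and 10, with Kitl at 0.09. At 72 h the PT-S1 medians were 0.00 in decile 1, -0.20 in decile 2 and -0.27 to -0.35 in deciles 3 to 10. Over all genes of that table the median was -0.29 and Kitl had -0.50, so lower values there were not confined to long transcripts. In the CCD at 24 h decile 1 had -0.07 and deciles 2 to 8 lay between -0.03 and 0.01. The pattern therefore differed between tables.

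An index of transcript length, the median of the longest decile minus that of genes shorter than the median, was computed for each library after the data had been seen. In CCD animals at 24 h it was 0.02 to 0.18 in sham and -0.28 to -0.01 in UNx, so the groups did not overlap. Over the 28 CCD libraries the index had a Pearson r of 0.56 with Kitl when tables were centred, 0.77 without the low-correlation library, and 0.43 when groups were centred. For Kit r was 0.81, 0.56 and 0.86 in the same order. With the index as a covariate, the Kitl difference at 24 h was -1.32 (SE 0.189), 0 genes of the table passed, and the limma adjusted p of Mitf was 0.39. Kit then had a difference of 0.22 in place of -0.15. Since the index separates the groups fully in this table, index and surgery cannot be told apart, and what the index reflects was not tested.

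**Figure D4:**
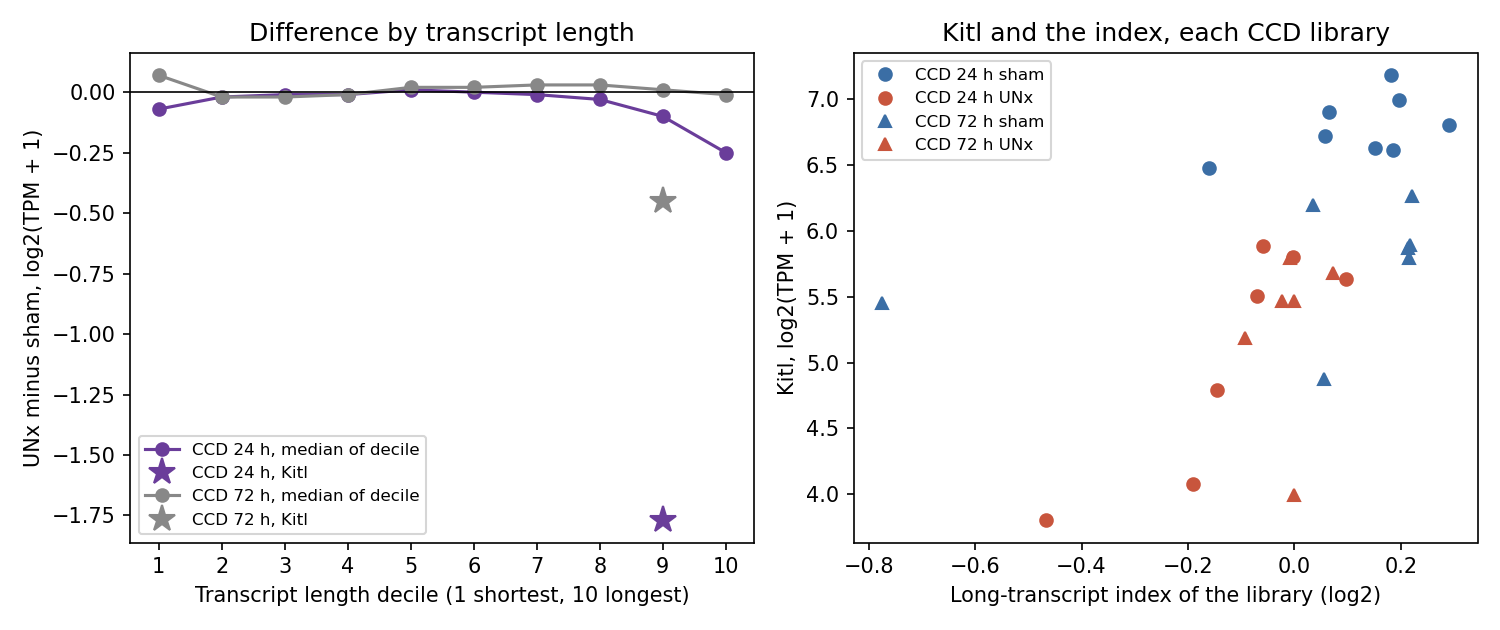
Left, the median UNx minus sham difference (log2(TPM + 1)) of tested genes by transcript length decile in CCD at 24 h and 72 h, with Kitl as stars. Right, Kitl (log2(TPM + 1)) against the long-transcript index of each of the 28 CCD libraries; Kitl at 24 h (-1.77) lies below the median of its decile (-0.10), and libraries with a higher index tend to hold more Kitl.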

How the data were processed

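Polyadenylated RNA was turned into cDNA by SMART-Seq V4 chemistry for low input and sequenced, per the labels' protocols. The authors deposited 4 tables of TPM per gene and library, 1 for each segment and time; RSEM 1.3.3, STAR and GRCm39 are named, without roles, in the submitters' processing notes. Sample titles number the mice within each arm, and that number was taken to be the animal. Of 69 columns, 47 matched a single sample and 22 matched a group and animal; 0 were unused. Depth is unknown.

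Libraries of an animal were averaged as log2(TPM + 1), with a pseudocount of 1. Within each table, genes with a mean of at least 1 TPM over animals were tested with limma 3.58.1 in R 4.3.3, with empirical Bayes moderation and a mean trend, two-sided, with Benjamini-Hochberg adjustment over all genes tested and a threshold of 0.05. Exact permutation tests over animals were made with SciPy 1.17.1. The fit was tested on simulated data. The interaction at 72 h used 1 model of 4 groups. Transcript lengths are the longest in GENCODE vM21.

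The members and all lists were chosen with earlier results of these data known. Named genes were Kitl, Kit, list members with an adjusted p under 0.05 (at most 5 a list), otherwise the 2 with the smallest p in CCD at 24 h, and the 5 most correlated genes with each member, passing over predicted genes. Sp1 was added after its values were seen. Alternatives covered pseudocount, filter, replicate unit, scaling, weights, left-out libraries and animals, a block by animal number and transcript length, the last added after the data were seen.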

Additional observations from a re-analysis of the deposited data

How the results depend on the processing

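TPM keeps no depth, so the precision of low values such as Kit in PT-S1 cannot be stated, and groups of 3 to 5 animals limit every test. Kitl in CCD at 24 h stayed lower in UNx under all 20 alternatives. All of them reuse the contrast that chose Kitl, so this is a description and no test. Its difference lay between -1.96 and -1.59 when an animal was left out, and moved most with the long-transcript index as a covariate, to -1.32. Kit in CCD at 24 h turned to 0.22 with that covariate. Kitl in CCD at 72 h (-0.66 to -0.20 with an animal left out) and in PT-S1 at 72 h (-0.69 to -0.29) kept direction and did not pass under any alternative. Signs turned for Kitl in PT-S1 at 24 h with array weights (-0.16), without low-correlation libraries (-0.02) and without UNx animal 3 (-0.17 to 0.22 over animals). They also turned for Kit in CCD at 72 h with array weights (-0.02), without the low-correlation library (-0.18) and without sham animal 1 (-0.06 to 0.36 over animals). The segment difference of Kitl at 72 h was -0.21 with median-ratio scaling and -0.16 to 0.30 with an animal left out; none of these passed, and the cause was not tested.

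The 136 genes called in CCD at 24 h became 1 with no filter, 1027 with every library a replicate, 485 with the animal as a random effect, 0 with the replicate block, 0 with the covariate and 7 to 78 with an animal left out. The single list gene became 0, 4, 3, 0, 0 and 0 to 1 under the same settings in turn. Mitf lost its call with no filter (limma adjusted p = 0.0922), the replicate block (0.135) and the covariate (0.39). In the other tables array weights gave 1426 genes in PT-S1 at 24 h and 1346 at 72 h, every library as a replicate 85 and 18, the random effect 100 and 10, and the replicate block 80 in PT-S1 at 24 h. CCD at 72 h went from 82 to between 3 (replicate block) and 150 (every library a replicate).

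Correlations of same-numbered deviations ran from -0.366 to 0.328. With so few animals they cannot show whether shared animal numbers mark paired animals. With the replicate block Kitl was -1.78 and -0.45 in CCD and 0.18 and -0.50 in PT-S1 (24 h, 72 h), and Kit -0.06 and 0.22 in CCD. For Kitl in CCD at 72 h the SE was 0.134 under the block and 0.277 without it (limma adjusted p = 0.388 and 0.837). Under the block the call of Mitf in CCD at 24 h was lost, and the tests of Kitl and Kit in the other tables kept their side of the threshold.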
